A study of Mus musculus with 10 samples.

Results

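Transcript levels of 10 genes of the oncostatin M, gp130 and STAT3 axis were examined in isolated mouse lens epithelium, out of 50763 genes in the count table. The genes were taken by symbol, and all 10 had a row. They are the receptor chains Osmr, Il6st, Lifr and Il6ra, the ligands Lif and Il6, the transducer Stat3, its feedback inhibitor Socs3, and the secreted proteins Lcn2 and Lbp. The study compared wild-type (WT) FVB/N mice with the homozygous transgenic lines OVE853 and OVE918 on the same FVB/N background, all at 3 weeks of age and with no further treatment. Both lines carry a self-activating human TGF-β1 that a modified αA-crystallin promoter drives in the lens, and both form anterior subcapsular plaques, fibrotic opacities under the front capsule. Each library was a pool of epithelia from up to 9 mice (WT, 3 libraries; OVE853, 3 libraries) or up to 7 mice (OVE918, 4 libraries), taken as the whole epithelium and not as the plaque alone. A pool averages its mice, so differences between single animals are not seen, and in whole tissue fewer cells of a type and less RNA per cell cannot be told apart.

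Cytokines of the interleukin-6 family signal through a shared receptor chain, gp130, which the gene Il6st encodes. Oncostatin M binds a pair of gp130 with OSMR, leukemia inhibitory factor (LIF) binds gp130 with LIFR, and interleukin-6 binds gp130 together with its own receptor IL6R (gene Il6ra). The paired receptors activate JAK kinases, which phosphorylate STAT3. STAT3 then enters the nucleus, where it induces its own gene, the inhibitor SOCS3, and acute-phase genes. The libraries measure RNA only, so receptor occupancy and STAT3 phosphorylation are outside these data.

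The 10 libraries held 24073311 to 31908525 counts each. Levels are CPM, counts scaled to a common library size with TMM factors, and levels that compare genes are CPM per kilobase of exon (FPKM). A DEG is a gene with an FDR of at most 0.05 and a log2 fold change of at least 1 in either direction, among genes that reached 2 FPKM in 5 or more of the 10 libraries. By these criteria, 491 of 11097 genes were DEGs in OVE853 against WT, 621 in OVE918 against WT and 54 in OVE918 against OVE853. Tgfb1, the transgene's mouse counterpart, averaged 54.3 ± 6.41 CPM over the 3 WT libraries (SD). It averaged 350 ± 11.3 CPM over the 3 OVE853 libraries and 775 ± 78.0 CPM over the 4 OVE918 libraries. Tgfb1 was thus higher in both lines than in WT, as their label TGFB1-overexpressing says, and the labels give no order of the lines. Reads of the human transgene that map to this gene cannot be told apart from reads of the mouse gene. The 8 lens epithelium markers (among them Foxe3, Pax6 and Cryaa) were detected in all libraries. WT replicate 3 stood apart: its retinal neuron and photoreceptor markers summed to 730 CPM, against 91.2 and 92.5 CPM in the other WT libraries and 35.8 to 146 CPM in the transgenic ones, so results for the 10 genes were also taken without it.

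The sequence just before the transcription start was compared for 9 of the 10 genes, all but Lbp, in windows of 250 bases from RefSeq (assembly GRCm38.p6). The window of Osmr is shown because it is the receptor chain that rose, that of Stat3 because it rose beside Osmr, and that of Socs3 because it alone held a match to the STAT pattern TTCNNNGAA. All are written 5′ to 3′ on the gene's strand, which is the minus strand for each, at chr15:6874314-6874563 (Osmr), chr11:100939541-100939790 (Stat3) and chr11:117969367-117969616 (Socs3) of GRCm38.p6. Capitals mark the match to TTCNNNGAA.
Osmr: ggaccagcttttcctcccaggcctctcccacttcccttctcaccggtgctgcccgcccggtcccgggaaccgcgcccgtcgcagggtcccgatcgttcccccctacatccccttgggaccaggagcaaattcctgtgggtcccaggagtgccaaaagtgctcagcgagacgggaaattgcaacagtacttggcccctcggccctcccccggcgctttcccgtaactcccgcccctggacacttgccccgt
Stat3: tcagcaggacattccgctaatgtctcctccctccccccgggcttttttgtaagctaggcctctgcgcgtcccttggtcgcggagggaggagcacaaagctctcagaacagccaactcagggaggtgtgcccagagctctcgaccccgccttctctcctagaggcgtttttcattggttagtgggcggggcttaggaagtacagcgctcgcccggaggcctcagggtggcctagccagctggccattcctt
Socs3: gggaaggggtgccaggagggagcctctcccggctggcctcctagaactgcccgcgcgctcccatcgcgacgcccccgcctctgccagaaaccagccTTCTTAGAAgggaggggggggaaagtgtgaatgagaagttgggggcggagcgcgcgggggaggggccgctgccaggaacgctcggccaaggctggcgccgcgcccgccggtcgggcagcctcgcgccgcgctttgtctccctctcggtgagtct

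The Socs3 match read TTCTTAGAA and began 154 bases before the start. TTCNNNGAA reads the same on both strands and occurred in 7.02% of 32851 windows of the same length, one or more per gene. The stricter TTCCNGGAA, a subset of that pattern, was in 0 of the 9 genes' windows and in 0.913% of all windows. The AP-1 pattern TGANTCA, searched on both strands, was in the windows of Il6, 249 bases before the start, and Lif, 228 bases before the start, and in 6.75% of all windows. These are matches of letters only.

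Of the 10 genes, 7 passed the FPKM minimum. The minimum was read on library totals without TMM factors. It can be passed by a gene present in the 7 transgenic libraries alone but not by one present in the 3 WT libraries alone. Lbp was under it in all 3 WT libraries and Osmr in 2 of 3, so both passed through the transgenic libraries, and the counts and medians over the 7 genes are a description. In OVE853, 4 of these 7 were higher DEGs (Osmr, Stat3, Lcn2 and Lbp) and 0 were lower, against a background of 2.51% of all genes tested being higher DEGs. In OVE918, 2 of 7 were higher DEGs (Osmr and Lbp) against a background of 2.58%. Stat3 also passed the FDR there, with a rise just under the minimum fold, so 3 of 7 genes passed the FDR alone in OVE918 (19.0% of all genes did), and 5 of 7 in OVE853 with Lifr added (15.8% of all genes did). Their log2 fold changes had a median of 2.10 (OVE853) and 1.59 (OVE918), where the median of all genes tested was -0.01 and 0.01. In OVE853, all 3 libraries lay above all WT libraries for 7 of 7 genes (23.4% of all genes tested did so), and in OVE918 for 3 of 7, Osmr, Stat3 and Lbp (12.3% of all genes). Both comparisons use the same WT libraries. Il6ra, Lif and Il6 lay under the FPKM minimum and were tested with the 18058 genes that pass edgeR's filterByExpr.

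**Figure D1:**
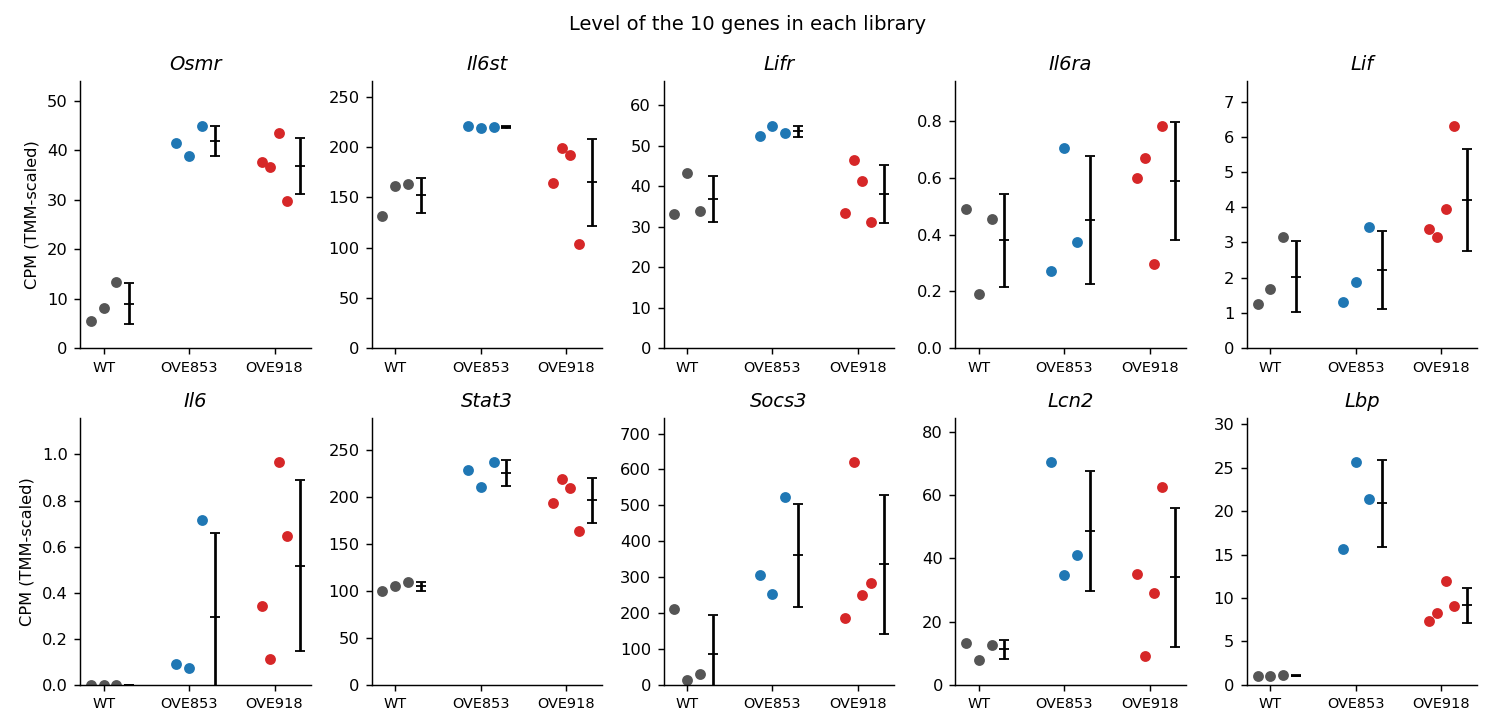
Level of each of the 10 genes in CPM (vertical axis, linear from 0) in each library (points, by group on the horizontal axis), with the mean and SD of each group as a bar to the right of its points. Osmr, Stat3 and Lbp have all transgenic libraries above all WT libraries, whereas Socs3 has 1 WT library at 210 CPM beside 12.3 and 31.3 CPM.

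Among the receptor chains, Osmr rose in both lines and its partners rose little or not at all. Osmr (ENSMUSG00000022146.14, GRCm39 chr15:6843053-6904450, minus strand), the oncostatin M receptor chain, had 5.46, 8.08 and 13.5 CPM in the 3 WT libraries. It had 41.5, 38.9 and 45.0 CPM in OVE853, and 37.6, 36.6, 43.5 and 29.7 CPM in OVE918. The lowest transgenic library was thus above the highest WT library, and WT replicate 3 was the highest of the WT libraries. OVE853 exceeded WT 4.62-fold (log2 2.21 ± 0.27, SE, FDR = 4.85e-04) and OVE918 exceeded it 4.07-fold (log2 2.03 ± 0.26, FDR = 3.67e-04). The lines did not differ by more than their error (log2 difference -0.18, 95% interval -0.70 to 0.34, FDR = 0.653). Without WT replicate 3 the log2 fold changes were 2.62 and 2.44, and the call held whichever library was left out.

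Il6st (ENSMUSG00000021756.14, GRCm39 chr13:112600604-112646620, plus strand), which encodes gp130, had 132, 161 and 163 CPM in WT. Its levels were 222, 219 and 220 CPM in OVE853, and 165, 199, 192 and 103 CPM in OVE918. All OVE853 libraries were above all WT libraries and close to each other, while the OVE918 libraries spanned the WT range. It did not pass the FDR in either line, with log2 fold changes of 0.53 (95% interval 0.08 to 0.98, FDR = 0.0960) in OVE853 and 0.12 (-0.30 to 0.54, FDR = 0.713) in OVE918. The OVE853 value passed the FDR without OVE918 replicate 4, the lowest library (FDR = 0.00811), and in a fit of OVE853 and WT alone (FDR = 0.0165). Lifr (ENSMUSG00000054263.14, GRCm39 chr15:7120095-7226970, plus strand), the LIF receptor chain, had 33.2, 43.4 and 33.9 CPM in WT. It had 52.4, 55.0 and 53.1 CPM in OVE853, and 33.3, 46.5, 41.2 and 31.2 CPM in OVE918. Its rise in OVE853 was 1.45-fold (log2 0.54 ± 0.15, FDR = 0.0395), under the minimum fold, and in OVE918 its log2 fold change was 0.05 ± 0.15 (FDR = 0.851). The rise in OVE853 missed the FDR in 6 of 10 fits that left out a library: WT replicate 1 or 3, any OVE853 replicate, or OVE918 replicate 3 (FDR = 0.0554 to 0.109).

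Il6ra (ENSMUSG00000027947.13, GRCm39 chr3:89771366-89820719, minus strand), the interleukin-6 binding chain, was near the limit of detection with 5 to 19 counts per library, 0.19 to 0.49 CPM in WT, 0.27 to 0.70 CPM in OVE853 and 0.30 to 0.78 CPM in OVE918. The 3 groups overlapped, and with so few counts no difference was detectable (FDR = 0.777 in OVE853 and 0.404 in OVE918).

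Per kilobase of exon, the order of the chains changed between WT and the transgenic lines. In WT, gp130 led with 13.4 ± 1.57 FPKM (SD, n = 3), followed by Lifr with 2.98 ± 0.46 FPKM, Osmr with 1.64 ± 0.74 FPKM and Il6ra with 0.0440 ± 0.0189 FPKM. In OVE853 the order was Il6st (19.4 ± 0.12 FPKM, n = 3), Osmr (7.61 ± 0.56 FPKM), Lifr (4.32 ± 0.11 FPKM) and Il6ra (0.0521 ± 0.0261 FPKM). In OVE918 it was Il6st (14.5 ± 3.86 FPKM, n = 4), Osmr (6.70 ± 1.03 FPKM), Lifr (3.08 ± 0.57 FPKM) and Il6ra (0.0681 ± 0.0241 FPKM). Lifr and Osmr held the middle places in every group, with Lifr ahead in WT and Osmr ahead in both lines. In WT replicate 3 they were nearly equal, Lifr at 2.74 FPKM and Osmr at 2.45 FPKM.

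The ratio of Osmr to Lifr, which does not depend on library size, put this in a single number per library. It was 0.370, 0.419 and 0.894 in WT, 1.78, 1.59 and 1.91 in OVE853, and 2.54, 1.77, 2.38 and 2.14 in OVE918. Per kilobase, Osmr was thus below Lifr in 3 of 3 WT libraries and above it in 7 of 7 transgenic libraries. Which chain leads depends on the exon lengths used, 5.496 kb for Osmr and 12.37 kb for Lifr. By raw counts Osmr was below Lifr in OVE853 replicates 1, 2 and 3 (1375 against 1736, 1050 against 1483 and 1322 against 1559). It was also below Lifr in OVE918 replicates 2 and 4 (982 against 1248 and 644 against 677). Only in OVE918 replicates 1 and 3 was it above Lifr (878 against 778 and 1170 against 1108). The difference in log2 ratio between groups does not depend on the lengths. The mean log2 ratio was -0.95 ± 0.69 in WT (SD, n = 3) and 0.99 ± 0.25 in the transgenic libraries (n = 7), a difference of 1.94 or 3.85-fold (two-sided exact permutation test, p = 0.0167, the smallest p these group sizes allow). Within OVE853 alone the difference was 1.76 (exact permutation p = 0.1) and within OVE918 alone 2.08 (exact permutation p = 0.0571), again the smallest p each allows, and neither can go below 0.05. Osmr had been seen to rise before this ratio was formed, so the ratio restates that rise against Lifr. It is a ratio of transcripts and not of receptors on the cell surface.

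**Figure D2:**
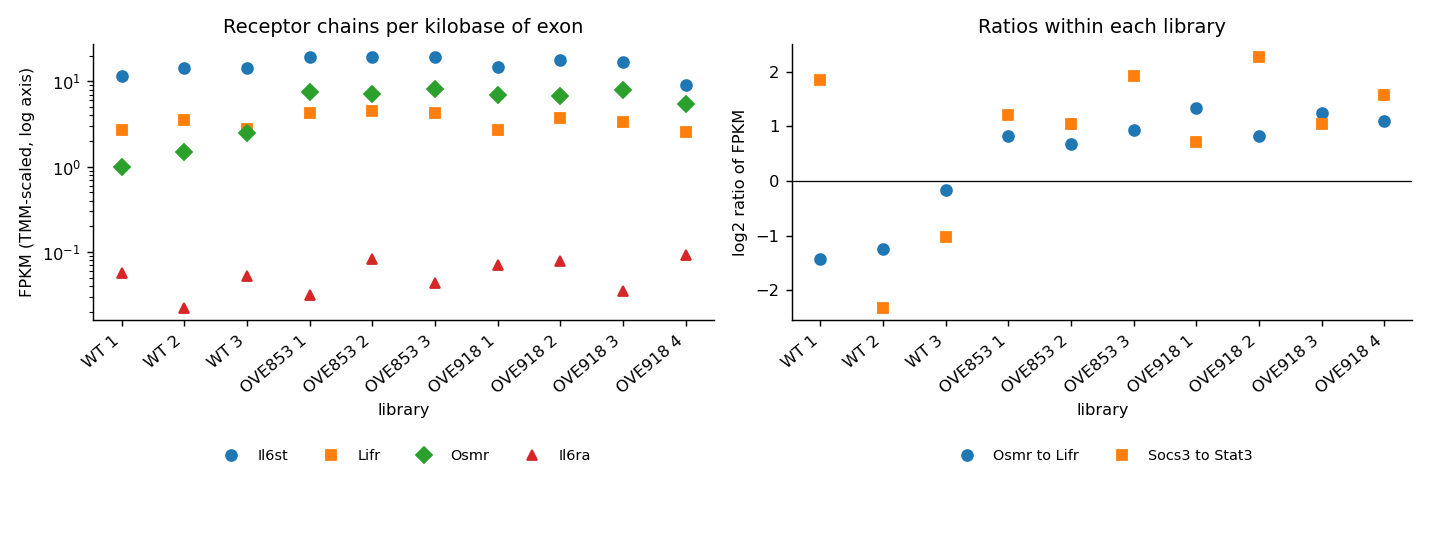
Left, level of the 4 receptor chains per kilobase of exon (FPKM, log axis) in each library; right, log2 ratio of Osmr to Lifr and of Socs3 to Stat3 within each library. The Osmr to Lifr ratio is below 0 in 3 WT libraries and above 0 in 7 transgenic libraries, and the Socs3 to Stat3 ratio of WT replicate 1 lies among the transgenic values.

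The ligands were scarce. Lif (ENSMUSG00000034394.16, GRCm39 chr11:4207557-4222514, plus strand) had 1.25, 1.69 and 3.16 CPM in WT and 1.30, 1.89 and 3.44 CPM in OVE853. In OVE918 it had 3.38, 3.17, 3.94 and 6.32 CPM, above the WT libraries but only just at the lowest. On the log2 scale it differed from WT by 0.13 ± 0.44 in the OVE853 line (FDR = 0.863) and by 1.07 ± 0.42 in the OVE918 line (FDR = 0.106), so Lif passed the FDR in neither line. Without WT replicate 3, the highest WT library, Lif was called in OVE918 (log2 1.50, FDR = 0.0388).

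Il6 (ENSMUSG00000025746.12, GRCm39 chr5:30218112-30224979, plus strand), the founding cytokine of the family, had 0 counts in all 3 WT libraries. It had 3, 2 and 21 counts in OVE853, and 8, 3, 26 and 14 counts in OVE918, or 0.07 to 0.71 and 0.11 to 0.97 CPM. Transcripts were therefore seen in 7 of 7 transgenic libraries and 0 of 3 WT libraries, where 3 counts per library, or 0.118 CPM on average, would be the upper limit. Against that limit the mean level was at least 4.37-fold higher in OVE918, whose replicate 2 was itself under the limit. OVE853 replicates 1 and 2, at 0.09 and 0.07 CPM, were under the limit too, so that its level rests on replicate 3. Il6 entered the edgeR fit only through the transgenic libraries, and its FDR was 0.0797 in OVE853 and 0.0364 in OVE918. The call in OVE918 was lost when any 1 WT library or OVE918 replicate 1 was left out (FDR = 0.0533 to 0.0695). Without OVE918 replicate 3 or 4 the gene no longer passed filterByExpr and could not be tested, and in OVE853 DESeq2 gave an FDR of 0.00990. The transcript of oncostatin M itself, Osm, was at 0 to 0.0447 CPM in WT, 0 to 0.0604 CPM in OVE853 and 0.0857 to 0.231 CPM in OVE918, too few counts to test; it is given because it is the ligand of the receptor that rose.

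Stat3 (ENSMUSG00000004040.18, GRCm39 chr11:100775924-100830450, minus strand), the transcription factor of the pathway, about doubled with little spread. It had 99.7, 105 and 109 CPM in WT, 229, 210 and 237 CPM in OVE853, and 193, 219, 209 and 163 CPM in OVE918. No transgenic library overlapped the WT range. The fold was 2.15 in OVE853 (log2 1.11 ± 0.11, FDR = 1.60e-04) and 1.87 in OVE918 (log2 0.91 ± 0.11, FDR = 2.30e-04), so that Stat3 passed the FDR in both lines and the minimum fold in OVE853. The direct comparison of the lines did not pass (log2 -0.20, 95% interval -0.43 to 0.03, FDR = 0.280), and the different call reflects the side of the fold threshold.

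Socs3 (ENSMUSG00000053113.5, GRCm39 chr11:117856905-117860898, minus strand), the feedback inhibitor of gp130 receptors, was the least stable of the 7 genes in WT. It had 210, 12.3 and 31.3 CPM in WT, so that the highest library was 17.1 times the lowest, and 0.126% of the genes tested with counts in every WT library had a WT range at least as wide. It had 306, 253 and 523 CPM in OVE853, all above WT, and 185, 620, 251 and 285 CPM in OVE918, of which 1 lay below WT replicate 1. With a log2 fold change of 2.10 ± 0.95 in OVE853 (FDR = 0.159) and 1.99 ± 0.91 in OVE918 (FDR = 0.168), Socs3 passed in neither line, although its estimated folds (4.28 and 3.97) were close to those of Osmr. Without WT replicate 1 the log2 fold changes were 4.05 (FDR = 0.00768) and 3.94 (FDR = 0.00569), so that 1 library decides the call. The ratio of Socs3 to Stat3 was 3.61, 0.201 and 0.493 in WT, 2.30, 2.07 and 3.79 in OVE853, and 1.64, 4.86, 2.06 and 2.99 in OVE918. The groups overlapped in this ratio (log2 difference 1.89, two-sided exact permutation p = 0.1).

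Other STAT3 targets that are also immediate early or stress genes varied in a like manner among replicates. Junb, a subunit of AP-1, had 194, 25.7 and 185 CPM in WT and 77.0 to 449 CPM in OVE918, and Cebpd, a C/EBP transcription factor, had 10.9, 4.04 and 23.0 CPM in WT. WT replicate 2 was the lowest WT library for Socs3, Junb, Cebpd and Cebpb, and OVE918 replicate 2 was the highest OVE918 library for Socs3, Junb and Cebpd. The highest WT library differed, being replicate 1 for Socs3 and Junb and replicate 3 for Cebpd and Cebpb. Junb, Cebpd and Cebpb were picked for this description after their spread was seen, and 0 of the 3 passed the FDR in either line.

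**Figure D3:**
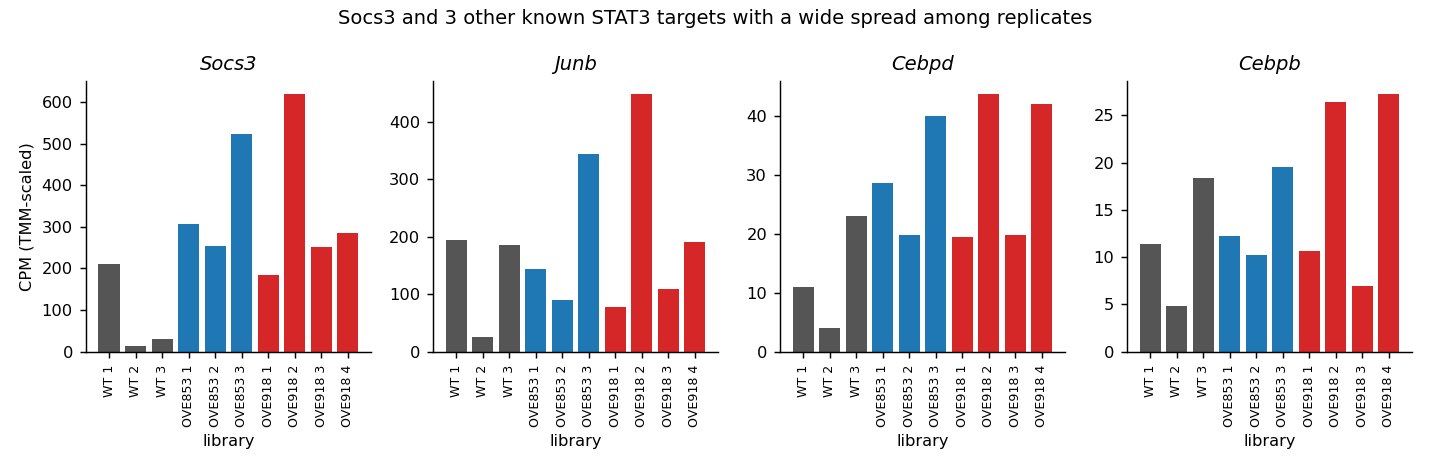
Level in CPM (bars from 0, a scale of its own for each gene) of Socs3, Junb, Cebpd and Cebpb in each of the 10 libraries. WT replicate 1 is far above the other WT libraries for Socs3 (210 against 12.3 and 31.3 CPM), and OVE918 replicate 2 is the highest of all libraries for Socs3, Junb and Cebpd.

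Lcn2 (ENSMUSG00000026822.15, GRCm39 chr2:32274645-32278264, minus strand) encodes lipocalin 2, a secreted protein that binds bacterial iron carriers. It had 13.1, 7.85 and 12.7 CPM in WT, 70.4, 34.8 and 41.2 CPM in OVE853, and 35.2, 8.98, 29.1 and 62.6 CPM in OVE918. All OVE853 libraries were above WT, whereas OVE918 replicate 2 lay within the WT range. The fold was 4.35 in OVE853 (log2 2.12 ± 0.61, FDR = 0.0473) and 3.02 in OVE918 (log2 1.59 ± 0.57, FDR = 0.0886). Single libraries moved both calls: the OVE853 call was lost in 8 of 10 fits that left out a library, all but those without OVE918 replicate 2 or 4, with an FDR of up to 0.141, and the OVE918 rise was called without OVE918 replicate 2 (log2 1.91, FDR = 0.00962). Lcn2 is also abundant in neutrophils. The 10 neutrophil markers (among them S100a8, Mpo and Elane) summed to 0.0769 to 0.245 CPM in WT and 0.136 to 0.259 CPM in OVE853, with 7 to 8 of them at 0 counts in each of these libraries. In OVE918 they summed to 0.335 to 2.26 CPM, with 1 to 7 at 0 counts, and the highest sum was in replicate 4, which also had the highest Lcn2 of the line. The 10 macrophage markers summed to 17.7 to 44.1 CPM in WT, 42.3 to 66.4 CPM in OVE853 and 29.4 to 76.8 CPM in OVE918, with 0 of them at 0 counts. By library the macrophage sums were 66.4, 42.3 and 59.8 CPM in OVE853 replicates 1 to 3 and 64.8, 29.4, 47.4 and 76.8 CPM in OVE918 replicates 1 to 4. Within each line the order of these sums was the order of the Lcn2 levels, and OVE918 replicate 2 had the lowest of both. In WT the orders differed: the sums were 29.1, 17.7 and 44.1 CPM in replicates 1 to 3, and replicate 1 had the highest Lcn2. Of the 10 macrophage markers, Mrc1 alone was lower on average in both lines (2.92 CPM in WT, 0.159 CPM in OVE853 and 0.240 CPM in OVE918). The part of these cells in the Lcn2 and Il6 levels was not tested.

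Lbp (ENSMUSG00000016024.11, GRCm39 chr2:158148409-158174800, plus strand) encodes the lipopolysaccharide-binding protein, an acute-phase protein that hands bacterial lipid to CD14 and TLR4. Of the 10 genes it changed the most among those that passed the FPKM minimum. It had 0.98, 1.00 and 1.12 CPM in WT, 15.7, 25.6 and 21.4 CPM in OVE853, and 7.37, 8.27, 12.0 and 9.09 CPM in OVE918. The 3 groups did not overlap at any point, with OVE918 between WT and OVE853. The rise was 20.0-fold in OVE853 (log2 4.33 ± 0.25, FDR = 3.42e-06) and 8.82-fold in OVE918 (log2 3.14 ± 0.24, FDR = 1.21e-05).

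**Figure D4:**
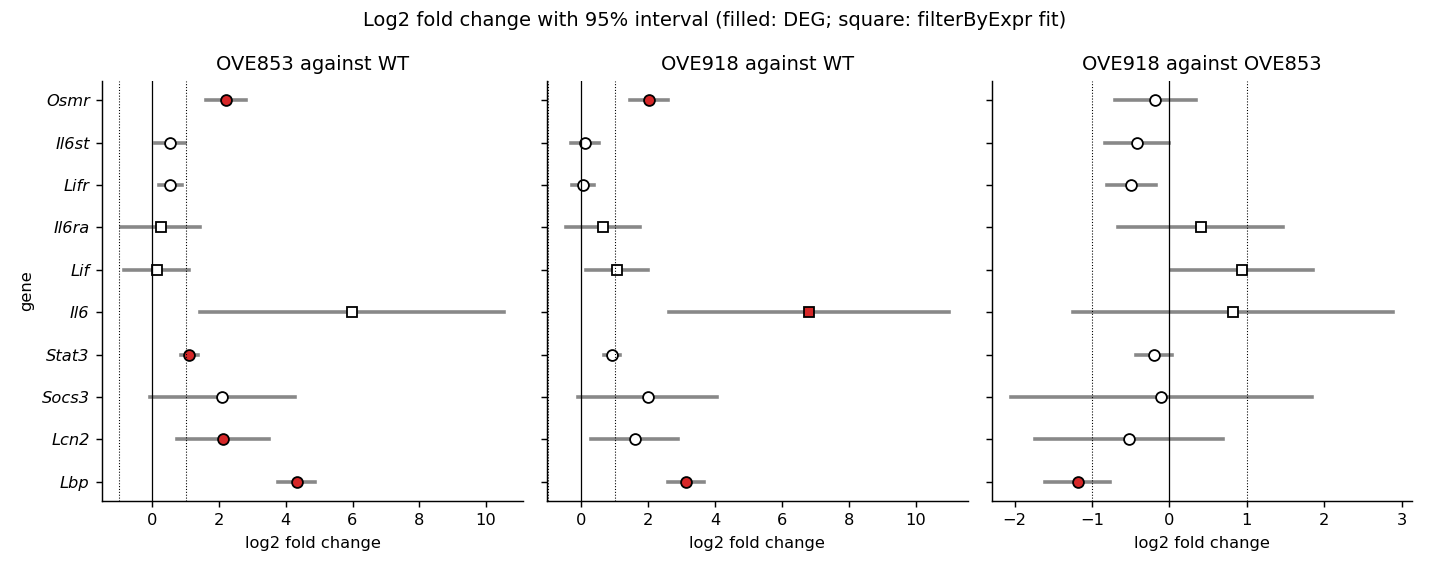
Log2 fold change (horizontal axis, a scale of its own for the comparison of the lines) of the 10 genes with its 95% interval; filled points are DEGs, squares were tested with filterByExpr, and dotted lines mark the minimum fold. The interval of Lbp lies beyond the minimum fold in both lines, and those of Socs3 include 0.

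Between the lines, Tgfb1 was 2.22-fold higher in OVE918. Lbp was lower in OVE918 than in OVE853 (2.27-fold, log2 -1.18 ± 0.19, FDR = 0.0249), the one DEG among the 7 genes, against a background of 0.415% of all genes tested being lower DEGs. That call was lost when OVE853 replicate 2, OVE853 replicate 3, OVE918 replicate 1 or OVE918 replicate 4 was left out (FDR = 0.0590 to 0.143), with the log2 difference between -1.35 and -1.01 under the alternatives run. All OVE918 libraries also lay below all OVE853 libraries for Il6st (log2 -0.42, 95% interval -0.83 to 5.43e-05, FDR = 0.219) and Lifr (log2 -0.49, -0.81 to -0.17, FDR = 0.100), so 3 of 7 genes had this pattern (16.2% of all genes tested did). The median log2 difference of the 7 genes was -0.42, where all genes had -0.02. For Lif, Il6 and Il6ra the log2 differences were 0.94 (95% interval 0.02 to 1.86), 0.82 (-1.25 to 2.89) and 0.40 (-0.67 to 1.47), and none of the 3 passed the FDR (0.272, 0.666 and 0.691). The intervals of Socs3 (-2.05 to 1.84) and Lcn2 (-1.74 to 0.69) are wide enough to hold a large difference either way.

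Around these 10 genes, 74 further genes of the pathway were read from lists, of which 40 passed the FPKM minimum. In OVE853, 10 of the 40 were higher DEGs and 0 lower, where 2.51% of all genes tested were higher and 1.91% lower. In OVE918, 6 were higher and 1 lower, where 2.58% of all genes were higher and 3.02% lower. As for the 10 genes, the minimum lets in genes present only in the transgenic libraries, so these counts are a description. Of the 8 other ligands of the family read here, 6 were under 1 CPM in all libraries (Osm, Il11, Cntf, Il27, Ebi3 and Il31). Ctf1, which encodes cardiotrophin 1 and was the one ligand that passed the minimum, had 14.4, 16.8 and 15.8 CPM in WT, 10.7, 12.8 and 11.3 CPM in OVE853, and 7.58, 7.60, 6.69 and 8.30 CPM in OVE918. It fell in both lines, with log2 fold changes of -0.43 ± 0.12 (FDR = 0.0386) in OVE853 and -1.05 ± 0.12 (FDR = 1.29e-04) in OVE918. Clcf1, which encodes another ligand of the family, lay close to the minimum without passing it and passed the FDR in neither line by filterByExpr (log2 0.62, FDR = 0.0887 in OVE853 and log2 0.00, FDR = 0.997 in OVE918). Of the 4 other receptor chains, 2 were above the minimum and 0 were DEGs, too few genes to set against the shares of all genes given above. Il11ra1, the interleukin-11 receptor chain, fell under the minimum fold in both lines (log2 -0.67 and -0.74, FDR = 0.0228 and 0.00692), and since mice carry near-identical copies of this gene its counts are uncertain. Il27ra and Il31ra were under 1 CPM.

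Among the 6 JAK kinases and ERK adaptors, 1 was a DEG, higher in each line (2.51% and 2.58% of all genes tested were higher DEGs). Jak3, the kinase of the common cytokine gamma chain, had 9.84, 10.8 and 8.34 CPM in WT, 47.9 to 59.1 CPM in OVE853 and 40.4 to 48.8 CPM in OVE918. It rose 5.67-fold (log2 2.50 ± 0.13, FDR = 1.58e-06) and 4.60-fold (log2 2.20 ± 0.12, FDR = 1.90e-06). The kinases that gp130 receptors are known to use moved little: Jak1 did not pass (log2 -0.10 and -0.19, FDR = 0.546 and 0.248), Jak2 fell under the minimum fold (log2 -0.46 and -0.62, FDR = 0.0138 and 0.00113) and Tyk2 rose under it (log2 0.43 and 0.33, FDR = 0.0234 and 0.0439). Of the 4 other STAT genes read here that were above the minimum, Stat5a was a DEG in OVE853 (log2 1.33, FDR = 7.49e-04). It passed the FDR under the minimum fold in OVE918 (log2 0.81, FDR = 0.00624), and the test between the lines did not pass (log2 difference -0.52, FDR = 0.111). Stat4, which carries interleukin-12 signals, lay under the minimum and is named after its values were seen. It had 2 to 5 counts in each WT library and 0.92 to 1.87 CPM in the transgenic libraries, through which it entered the filterByExpr fit (log2 3.36, FDR = 0.00150 in OVE853 and log2 3.02, FDR = 0.00126 in OVE918). Of the 5 tested negative regulators besides Socs3, 0 were DEGs in either line. Of all genes tested, 2.51% and 2.58% were higher DEGs and 1.91% and 3.02% lower DEGs in OVE853 and OVE918. In each line 2 rose under the minimum fold with the FDR passed, which 15.8% and 19.0% of all genes tested passed at any fold. Socs1, which encodes a related inhibitor of JAK kinases, lay under the FPKM minimum and is also named after its values were seen. By filterByExpr it was a higher DEG in OVE853 (log2 1.14, FDR = 0.0323), and in OVE918 it did not pass the FDR (log2 0.89, FDR = 0.0578).

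Of the 18 other known STAT3 targets, 16 were above the minimum, and 4 were higher DEGs in each line: Bcl3, Timp1, Gfap and Icam1 (2.51% and 2.58% of all genes tested were higher DEGs). Bcl3, a co-activator that works with NF-κB, had 0.76, 0.62 and 0.46 CPM in WT, 18.1 to 23.7 CPM in OVE853 and 14.1 to 21.7 CPM in OVE918, the largest rise of this list (36.0-fold, log2 5.17 ± 0.24, FDR = 7.06e-07 and 30.3-fold, log2 4.92 ± 0.23, FDR = 1.15e-06). Timp1, an inhibitor of matrix metalloproteinases, rose 5.30-fold and 10.1-fold (FDR = 1.05e-04 and 6.09e-06). Gfap, an intermediate filament gene, rose 3.56-fold and 3.76-fold, from 59.8 to 104 CPM in WT to 243 to 352 CPM over both lines, while the 5 Müller glia markers summed to 1602 to 4132 CPM in WT and 418 to 1047 CPM in the transgenic libraries. Icam1, a leukocyte adhesion receptor, rose 3.74-fold and 2.44-fold. Of the other 12 targets, 2 rose (Mcl1 and Vegfa) and 1 fell (Bcl6) under the minimum fold in each line, with the FDR passed. Of all genes tested, 15.8% (OVE853) and 19.0% (OVE918) passed the FDR at any fold. Over the 16 targets the log2 fold changes had a median of 0.52 (OVE853) and 0.58 (OVE918). Many of these genes answer to other factors too, NF-κB among them, and the study had itself named Osmr, Lcn2, Lbp, Timp1, Icam1, Bcl3, Gfap and Serpina3n from these samples, so their direction is not independent evidence.

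The other acute-phase genes followed Lbp in part. Of 20 listed, 12 were under 1 CPM in all libraries (Saa1, Saa2, Saa3, Orm1, Orm2, Hp, Fga, Fgb, Fgg, Crp, Lrg1 and Hamp), and 4 were above the FPKM minimum. All 4 were higher DEGs in OVE853 and 1 of 4, Serpina3n, in OVE918, against the same 2.51% and 2.58% of all genes. Serpina3n, a serine protease inhibitor, rose from 50.9 to 77.3 CPM in WT by 14.8-fold in OVE853 (FDR = 2.63e-06) and 20.8-fold in OVE918 (FDR = 1.15e-06). The complement gene C3 rose 6.77-fold in OVE853 (log2 2.76 ± 0.58, FDR = 0.0158), and in OVE918, where 1 of its libraries lay within WT, its log2 fold change was 1.48 ± 0.54 (FDR = 0.0892). A2m, a broad protease inhibitor, rose 2.63-fold in OVE853 (FDR = 0.00193), had a log2 fold change of 0.25 in OVE918 (FDR = 0.413) and was lower in OVE918 than in OVE853 (log2 -1.14, FDR = 0.0304). Cp, the copper carrier ceruloplasmin, rose 2.20-fold in OVE853 (FDR = 2.22e-04) and 1.71-fold in OVE918 (FDR = 0.00104). Of the partners of Lbp and Lcn2, 0 of 2 tested were DEGs, too few genes to set against these shares. Of the 2, Slc22a17 fell in OVE918 under the minimum fold with the FDR passed, which 19.0% of all genes tested passed at any fold. It averaged 215 ± 5.47 CPM in WT, 211 ± 2.87 CPM in OVE853 and 170 ± 7.85 CPM in OVE918 (SD). Tlr4, the lipopolysaccharide receptor, lay under the FPKM minimum and is named after its values were seen: it fell from 4.79, 7.85 and 13.1 CPM in WT to 0.34 to 0.97 CPM in OVE853 and 0.26 to 0.74 CPM in OVE918 (log2 -3.60, FDR = 0.00136 and log2 -4.14, FDR = 2.00e-04). The 5 markers of non-pigmented ciliary epithelium summed to 156 to 247 CPM in WT and 13.2 to 66.2 CPM in the transgenic libraries. Among them, Best2, Wfdc1 and Slc6a13 are listed by the study with its top genes reduced in both lines. Cldn2, of the same list, averaged 33.9 CPM in WT, 28.0 CPM in OVE853 and 9.57 CPM in OVE918. The 5 cornea markers summed to 239 to 1630 CPM in WT and 27.3 to 95.4 CPM in the transgenic libraries. Nearly all of that sum was Aldh3a1 (236 to 1611 CPM in WT), which the study lists among its top genes reduced in both lines. Krt12, Krt5 and Krt15 averaged 2.11, 0.967 and 6.53 CPM in WT and were lower in both lines. Krt14 averaged 0.127 CPM in WT, 0.114 CPM in OVE853 and 0.501 CPM in OVE918. The part of ciliary epithelium and cornea in the Tlr4 level was not tested.

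**Figure D5:**
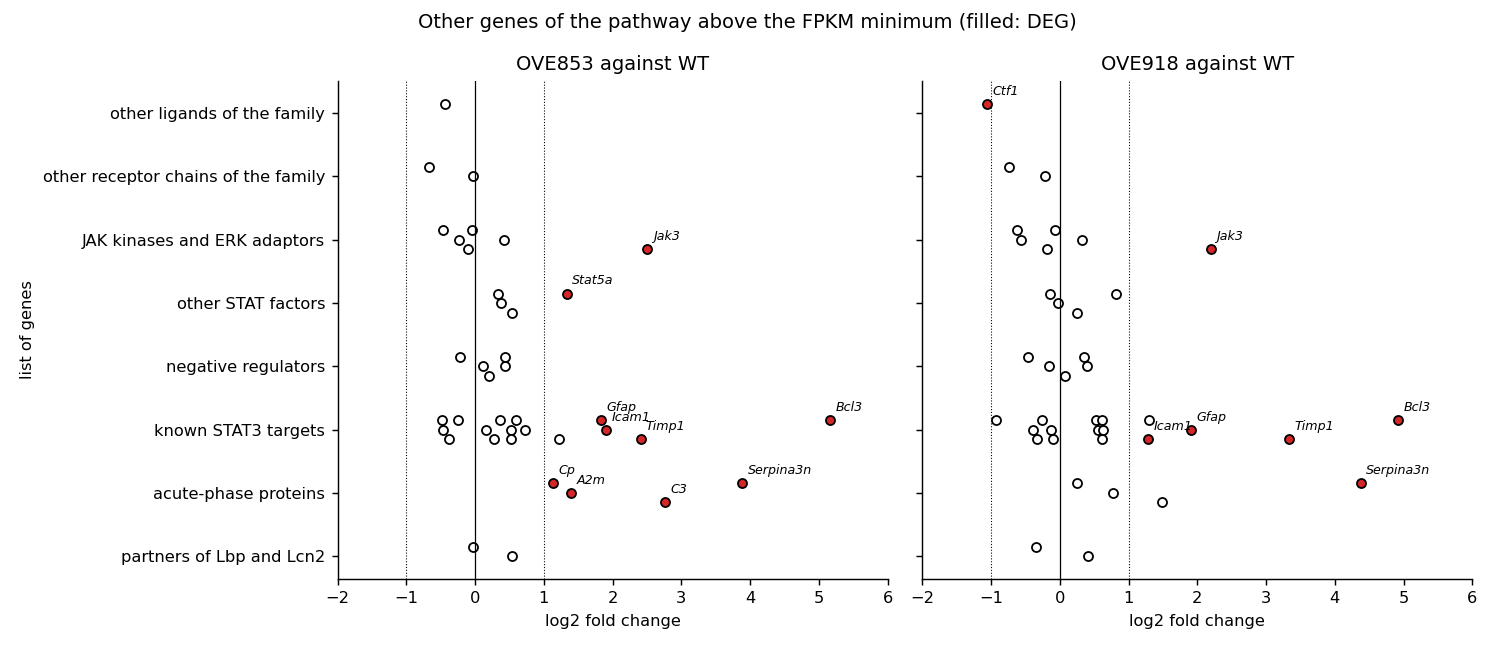
Log2 fold change (horizontal axis) of the other pathway genes above the FPKM minimum, by list (rows; the vertical scatter within a row only separates points), in OVE853 and OVE918 against WT; filled points are DEGs and are named. In the list of acute-phase proteins 4 of 4 genes are filled in OVE853 and 1 of 4 in OVE918, and in that of known STAT3 targets the same 4 genes are filled in both.

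The genes with the pattern most like that of Osmr, Socs3 and Lbp were found by the root mean square difference of standardized log2 CPM over the 10 libraries, where 0 is an identical pattern, among the other 11096 genes tested. Nearest to Osmr were Slc41a2, a magnesium transporter (0.104), Piezo2, a mechanically gated channel (0.180), Scrg1 (0.214), Card10, a scaffold protein of NF-κB signalling (0.220), and Prkch, a protein kinase C (0.231). Piezo2, for example, had 31.6, 44.8 and 50.3 CPM in WT and 86.1 to 144 CPM in the transgenic libraries. Nearest to Lbp were Tha1 (0.170), Stra6, a retinol transporter (0.179), Syne4 (0.182), Cfi, the complement protease factor I (0.189), and Cp (0.206). Cfi, like Lbp, had OVE918 between WT and OVE853, with 2.55, 3.04 and 3.16 CPM in WT, 124, 85.5 and 128 CPM in OVE853 and 42.9 to 66.1 CPM in OVE918. For Socs3 the nearest genes were farther away, at 0.306 (Cmpk1) to 0.411 (St7), with Tomm70a, Trib1 and Recql between them. These are descriptions of shared patterns in 10 libraries of 3 groups, where any genes with a like step between groups lie near each other.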

How the data were processed

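RNA-seq libraries of paired 150 bp reads from pooled lens epithelium (WT, OVE853 and OVE918, by the sample titles) were analysed. The authors trimmed reads (cutadapt 5.2), aligned them to GRCm39 (STAR 2.7.11b) and counted read pairs per gene (featureCounts 2.0.8), by their processing notes, and deposited a matrix of raw, whole-number counts, without normalization. Reads were assigned as reverse-stranded, by the study's methods. Of the matrix's columns, 0 lacked a sample.

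The deposited counts were tested in R 4.3.3 with edgeR 4.0.16: TMM factors, robust dispersions and a quasi-likelihood fit of the 3 groups, with Benjamini-Hochberg adjustment in each of the 3 contrasts. Genes needed at least 2 FPKM in 5 of 10 libraries, set on library totals without TMM factors (FPKM printed as levels use them), where lengths were the exons of transcripts that GENCODE vM39 tags Primary, joined on the gene symbol, and 7489 of 50763 genes had no length and were left out. The authors' RefSeq lengths were not used here. Errors are SEs of log2 fold changes or SDs over libraries. Intervals are 95% intervals. The script was tested on simulated data. Ratios used two-sided exact permutation tests (scipy 1.17.1). Alternatives were filterByExpr, a minimum of 1 count, RLE and upper-quartile factors, DESeq2 1.42.0, only the groups compared, a replicate block, and leaving out each library. Same-numbered replicates did not deviate together (residual r from -0.303 to 0.0838 over 9 pairs), so the numbers were not treated as pairs. Over the 24 differently numbered pairs the residual r ran from -0.399 to 0.389, and 6 of them were over 0.1. No batch or date is given in the labels. The labels call the libraries biological replicates.

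The 10 genes and the lists were chosen with earlier results of these data known. Some genes of the lists are not reported here and were left out of the counts over lists. Named beyond them are list genes that were DEGs or, for each list, up to 5 with the largest change, and for Osmr, Socs3 and Lbp the 5 genes nearest in pattern.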

Additional observations from a re-analysis of the deposited data

Results flagged for a closer look

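Of the 21 genes named by rule, 3 passed the FDR in the edgeR test of OVE918 against OVE853, where 146 of all 11097 genes tested did. The 21 are the 10 genes and the list genes that were DEGs in any of the 3 contrasts, this one included. Il6ra, Lif and Il6 are among the 21 but lay under the FPKM minimum, so they were not in that test. The count is therefore a description. Lbp was lower in OVE918 (log2 difference -1.18, FDR = 0.0249), with 4 of 4 OVE918 libraries below 3 of 3 OVE853 libraries. A2m, another acute-phase gene, was lower by a like amount (log2 difference -1.14, FDR = 0.0304), and again 4 of 4 OVE918 libraries were below the OVE853 libraries. Ctf1, a gp130 ligand that fell in both lines, fell further in OVE918 (log2 difference -0.62, FDR = 0.0389), which is under the minimum fold. Tgfb1 was 2.22-fold higher in OVE918 than in OVE853, the opposite order to Lbp and A2m. Other list genes lay in the order of Tgfb1. All OVE918 libraries were above all OVE853 libraries for Timp1 (84.6 to 153 against 48.5 to 66.6 CPM). The same held for Serpina3n (1095 to 1617 against 840 to 1091 CPM), though neither gene passed the FDR between the lines. No library of the OVE918 group, the one group of 4, was isolated from the rest of its group by Dixon's test in any of the 21 genes, a test that flags about 1 in 20 groups by chance.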

How the results depend on the processing

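Over 491 values of the 10 genes under the alternatives, 455 kept their direction and their side of the threshold, 18 lost the call, 7 gained it and 11 changed sign, all 11 of them values that passed the FDR in no fit; DESeq2 gave no adjusted p for 2 more. Il6 had no value without OVE918 replicate 3 or 4, or against WT with only the groups compared, since it did not pass filterByExpr there. Calls of Osmr and Lbp against WT and the FDR of Stat3 against WT held in every alternative. The sign changes were Il6ra in OVE853 (-0.07 without WT replicate 2 and -0.21 without OVE853 replicate 2, in a range of -0.21 to 0.49), Lif in OVE853 (-0.11 without WT replicate 1 and -0.37 without OVE853 replicate 3, in a range of -0.37 to 0.54), Lifr in OVE918 (-0.02 without WT replicate 1, -0.01 without WT replicate 3 and -0.060 without OVE918 replicate 2, in a range of -0.060 to 0.18) and Socs3 between the lines (0.056 with the replicate block, 0.26 without OVE853 replicate 3, 0.10 without OVE918 replicate 1 and 0.01 without OVE918 replicate 3, in a range of -0.59 to 0.26). Lcn2 in OVE853 lost its call with a minimum of 1 count (FDR = 0.119) and with upper-quartile factors (FDR = 0.0526), and in OVE918 DESeq2 called it (FDR = 0.0300). DEGs of all genes numbered 1244 and 1587 (OVE853 and OVE918 against WT) with filterByExpr, 1061 and 1548 with a minimum of 1 count, and 1752 and 2110 by FDR alone. Between the lines they numbered 106 with DESeq2, 28 with the replicate block and 146 by FDR alone, and 6 to 93 with 1 library left out, the lowest without OVE853 replicate 1 and the highest without WT replicate 3. Of the 7 genes, 3 to 4 were called in OVE853, 2 to 3 in OVE918 and 0 to 1 between the lines with 1 library left out. Under the replicate block the number called was unchanged at 4, 2 and 1, and the block called Il6 (FDR = 0.0389) and passed the FDR for Il6st (0.0108) in OVE853. The Osmr to Lifr difference was 1.70 to 2.34 with 1 library left out (exact permutation p = 0.0238 to 0.0556), each the smallest p the remaining libraries allow, and 1.76 and 2.08 in OVE853 and OVE918 alone. Pools of 3 or 4 libraries a group and under 30 counts for Il6 and Il6ra limit what these data can show for them.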
